A study of Rattus norvegicus with 23 samples.

Results

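The comparison described here sets the femora of rats with metabolic osteoporosis (MetOP) that were given saline against the femora of healthy control rats. It holds 9 of the 23 libraries of the study, chosen by their labels, with 5 libraries labelled MetOP-Saline (A224, A226, A229, A232 and A265) and 4 labelled Healthy control (A387, A389, A390 and A392). All came from female Wistar rats, and messenger RNA of the femur was sequenced as 1 bulk library per labelled sample. L-NAME, an inhibitor of nitric oxide synthases, together with high-fat feeding produced the MetOP state, and the titles of the controls name a standard diet with saline. The MetOP titles carry another unexplained term (lfd) after the one for high-fat diet, and the titles of both groups end in terms (LN and oLN) of unstated meaning. The diet when the femora were taken, and what the controls received besides saline, are therefore not known. Diet, and L-NAME if the controls did not receive it, differ together between the groups, so their parts cannot be told apart. No age is given, 1 batch label covers every library, and nothing states that each library came from a separate animal. The p-values thus reflect only how these samples vary, which may be technical.

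Bone is renewed by osteoclasts, which dissolve mineral and collagen, and by osteoblasts, which lay down new matrix and partly become osteocytes. Osteocytes steer both through secreted signals, among them sclerostin and RANKL, the ligand that drives osteoclast formation. Nitric oxide made by endothelial cells and osteocytes takes part in this control, and a fatty diet is known to shift the marrow towards fat and inflammatory signals. A femur prepared whole also holds blood-forming marrow, cartilage, vessels and adhering muscle, and in bulk RNA fewer cells of a type and less RNA per cell cannot be told apart.

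The tissue label held in every library. Col1a1, a chain of type I collagen in bone matrix, was counted at 138 to 3331 CPM across the 9 libraries, a unit that relates counts to the library total scaled by the TMM factors of edgeR, and Ctsk, the collagen-degrading protease of osteoclasts, at 27.3 to 376 CPM. Libraries held 21318399 to 32183493 counts. Transcripts of the mitochondrial genome made up 65.6 to 83.9% of the counts in MetOP saline and 56.0 to 82.6% in controls. Skeletal muscle genes took 1.41 to 3.86% of all counts in MetOP saline and 2.48 to 9.51% in controls, and the 3 haemoglobin genes counted took 0.481 to 2.35% and 0.978 to 2.47%. None of the exact two-sided permutation tests of 5 such shares passed after adjustment (smallest adjusted p = 0.397, n = 5 and 4). Of 30562 genes in the table, 12544 had no count in these 9 libraries.

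The main test called no single gene. The quasi-likelihood test of edgeR, fitted on all 23 libraries with 1 mean per group, called 0 of 15271 tested genes at an adjusted p under 0.05 (0% of those tested), and the smallest adjusted p was 0.119. At an unadjusted p under 0.05 stood 715 genes that were higher in MetOP saline (4.68%) and 285 that were lower (1.87%). For 240 genes every MetOP saline library lay above every control (1.57% of those tested), and for 184 every one lay below (1.2%). In all, 52.5% of tested genes had a log2 fold change above 0 and 47.4% one below, with a median of 0.04. The Wald test of DESeq2 called 47 genes (0.308%), 46 higher and 1 lower, all of them among the genes at an unadjusted p under 0.05 in edgeR, and limma voom called 0. Leaving out 1 library at a time gave 319 to 544 genes higher without overlap and 257 to 696 lower, with the largest counts in both directions without control A387. Values below are therefore differences between these libraries, and "higher" and "lower" describe them without a call.

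Fcho2, which bends the membrane at the start of clathrin-coated pits (chromosome 2, 30080962 to 30181241 in the deposited mRatBN7.2 table), was at 7.52, 11.6, 7.28, 16 and 10.96 CPM in MetOP saline and at 1.57, 2.07, 2.97 and 4.03 CPM in the controls. Libraries are given in the order of their numbers, here and below. All 5 model libraries lay above all 4 controls, with a log2 fold change of 2.01 (SE 0.38, edgeR adjusted p = 0.119).

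Arhgef12, an exchange factor that activates the cytoskeletal switch RhoA (chromosome 8, 43353799 to 43476366), was at 10.04, 13.6, 13.2, 20.2 and 17.4 CPM against 5.84, 5.58, 7.76 and 3.14 CPM. Its groups did not overlap, and its log2 fold change was 1.41 (SE 0.28, edgeR adjusted p = 0.119). Ddr2, a receptor for fibrillar collagen on cells of the osteoblast lineage (chromosome 13, 82195463 to 82317363), was at 18.7, 17.5, 30, 15.6 and 14.7 CPM against 8.90, 3.34, 7.76 and 4.80 CPM. Library A229 was the highest of the 9 for Ddr2, and the groups did not overlap (log2 fold change 1.63, SE 0.33, edgeR adjusted p = 0.146).

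Itpkb, a kinase that acts on inositol trisphosphate and so on calcium signals, was at 3.31, 3.65, 3.61, 3.33 and 4.36 CPM against 0.962, 1.18, 1.28 and 1.422 CPM. Mob1b, a cofactor of the Hippo pathway kinases, was at 1.36 to 6.78 CPM against 0.415 to 0.973 CPM, and the zinc finger gene Zbtb11 at 10.1 to 15.7 CPM against 4.56 to 7.23 CPM. Neither gene overlapped between the groups. Creb1, the factor that binds cyclic AMP response elements, was at 7.01, 8.77, 12.2, 10.2 and 4.18 CPM against 3.13, 2.33, 2.97 and 1.13 CPM (log2 fold change 1.82, SE 0.43, edgeR adjusted p = 0.293). Aff1, a scaffold of the elongation machinery of RNA polymerase, and Trim44, a tripartite motif protein, had log2 fold changes of 1.95 (SE 0.37) and 1.48 (SE 0.28), each at an edgeR adjusted p of 0.119.

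A few higher genes were close to absent in the controls. Mrtfb, a partner of serum response factor that reads the state of actin, had 128 counts over the 5 MetOP saline libraries (0.616, 0.287, 1.604, 1.67 and 1.63 CPM) and 0 in the 4 controls. Taken against a floor of 3 counts over the control group it was at least 31.5-fold higher. Mybl1, a transcription factor of the Myb family, was at 3.11, 1.02, 3.74, 4.89 and 1.03 CPM against 0, 0.0423, 0.411 and 0 CPM. Atad2b, an ATPase with a bromodomain, was at 2.42 ± 1.08 CPM (SD, n = 5) against 0.264 ± 0.305 (n = 4). DESeq2 called all 3 of these genes, and edgeR did not. Better expressed genes were also among the DESeq2 calls: Fcho2 and Aff1 (DESeq2 adjusted p = 0.000297 each), Arhgef12 and Trim44 (0.000516 each) and Ddr2 (0.00144). Itpkb, Mob1b, Zbtb11 and Creb1 passed in DESeq2 too, as did Mga and Kmt2e described below. None of these was called by edgeR or limma voom.

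Of the 12 higher genes with the smallest p, all 12 were without overlap between the groups, and their edgeR adjusted p ran from 0.119 to 0.293. In 6 of them (Aff1, Itpkb, Mga, Mob1b, Trim44 and Zbtb11) the 4 controls also lay below every one of the 19 MetOP libraries, of which 14 came from rats given semaglutide, PYY3-36 or both. Mga, a partner of Max on DNA, shows this, with controls at 3.06 to 6.02 CPM, MetOP saline at 7.57 to 9.29 CPM and the drug-treated libraries at 6.88 to 14.4 CPM. Since the 12 were picked from this contrast, their separation is a description.

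The lower genes had larger adjusted p. Fto, a demethylase of RNA that is also tied to body weight (chromosome 19, 15349696 to 15692083), was at 8.58, 9.79, 11.96, 7.09 and 6.60 CPM in MetOP saline against 16.7, 17.3, 19.4 and 13.2 CPM (log2 fold change -0.92, SE 0.26, edgeR adjusted p = 0.598). Every model library lay below every control. Cux1, a homeodomain repressor (chromosome 12, 20107311 to 20425866), was at 15.8, 20.2, 14.5, 18.1 and 14.5 CPM against 24.5, 24.96, 24.8 and 24.5 CPM. The 4 controls were nearly equal, and the log2 fold change was -0.57 (SE 0.18, edgeR adjusted p = 0.631).

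Rabac1, which handles Rab proteins at the Golgi, was at 4.74 to 11.5 CPM against 15.4 to 21.6 CPM, and Nedd8, the ubiquitin-like protein that switches on cullin ligases, at 9.99 to 12.6 CPM against 14.2 to 21.7 CPM. Neither overlapped between the groups. Gsta6, a glutathione transferase, was at 2.72 ± 1.24 CPM (SD, n = 5) against 6.90 ± 2.33 (n = 4), and Med28, a Mediator subunit, at 6.82 ± 2.49 against 12.6 ± 2.65. Of the 12 lower genes with the smallest p, 9 were without overlap, and their edgeR adjusted p ran from 0.536 to 0.631.

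**Figure D1:**
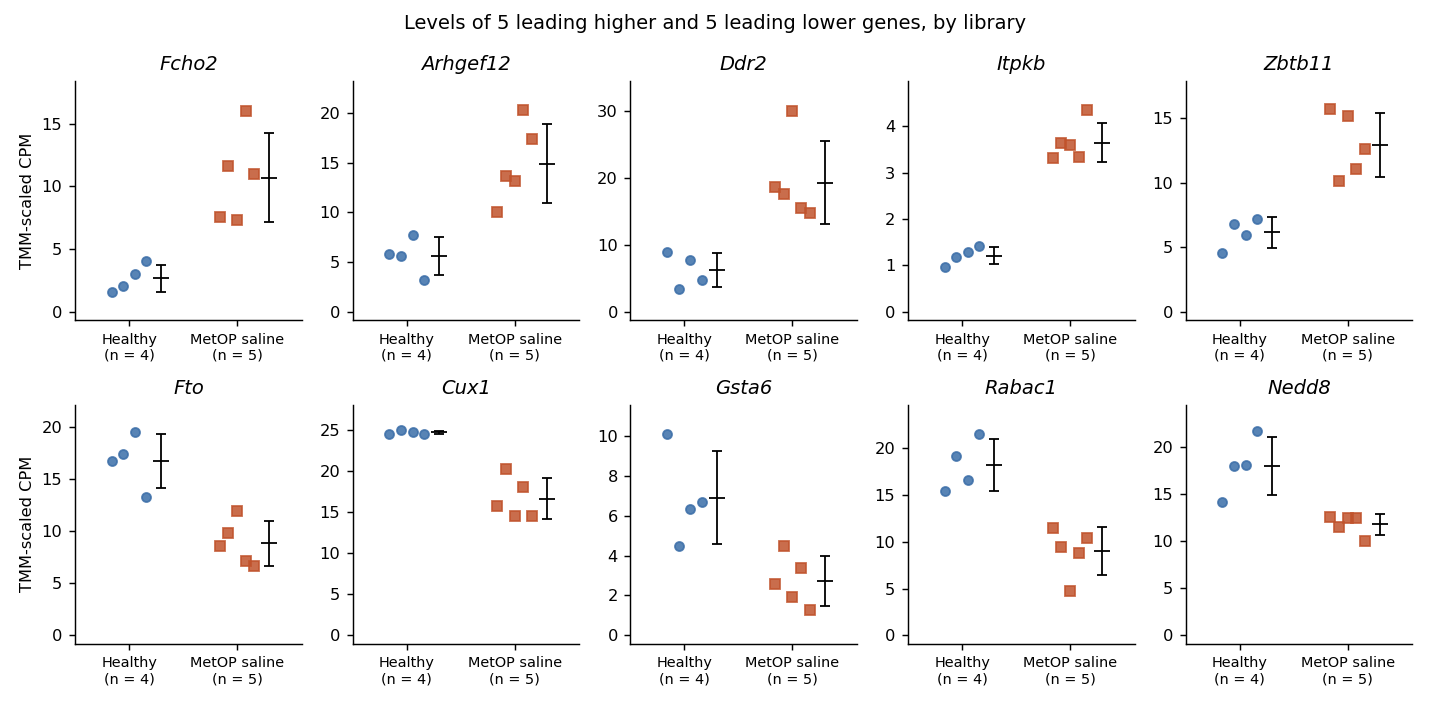
Levels of 5 of the leading higher genes (Fcho2, Arhgef12, Ddr2, Itpkb, Zbtb11) and 5 of the leading lower genes (Fto, Cux1, Gsta6, Rabac1, Nedd8) in TMM-scaled CPM, 1 point per library, with mean ± SD in black (4 healthy, 5 MetOP saline). In each of these 10 panels the groups do not overlap, and the controls of Cux1 lie between 24.5 and 24.96 CPM.

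Across gene groups, nearly all chromatin regulators and splicing factors were higher in MetOP saline, and nearly all ribosomal protein and proteasome genes were lower. Among 55 lists of genes, the level of a list (each library's average log2 CPM over the genes tested) separated the groups completely for 4. It was higher in every MetOP saline library for chromatin regulators, splicing factors and the list of ubiquitin and tripartite motif genes. For the proteasome it was lower in every one. These lists were chosen with earlier results of the same data known, so they are a description. List medians below are log2 fold changes. The median kept its sign in every alternative analysis for 30 of the 55 lists. It turned in at least 1 for the other 25, among them the osteoblast, osteocyte, Wnt, bone morphogenetic protein, hormone receptor, insulin, adipocyte, endothelial, vascular tone, angiogenesis, erythroid, megakaryocyte, neutrophil, T cell, immediate early, heat shock, clock, interferon and clathrin lists, whose directions given below rest on single libraries or settings.

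**Figure D2:**
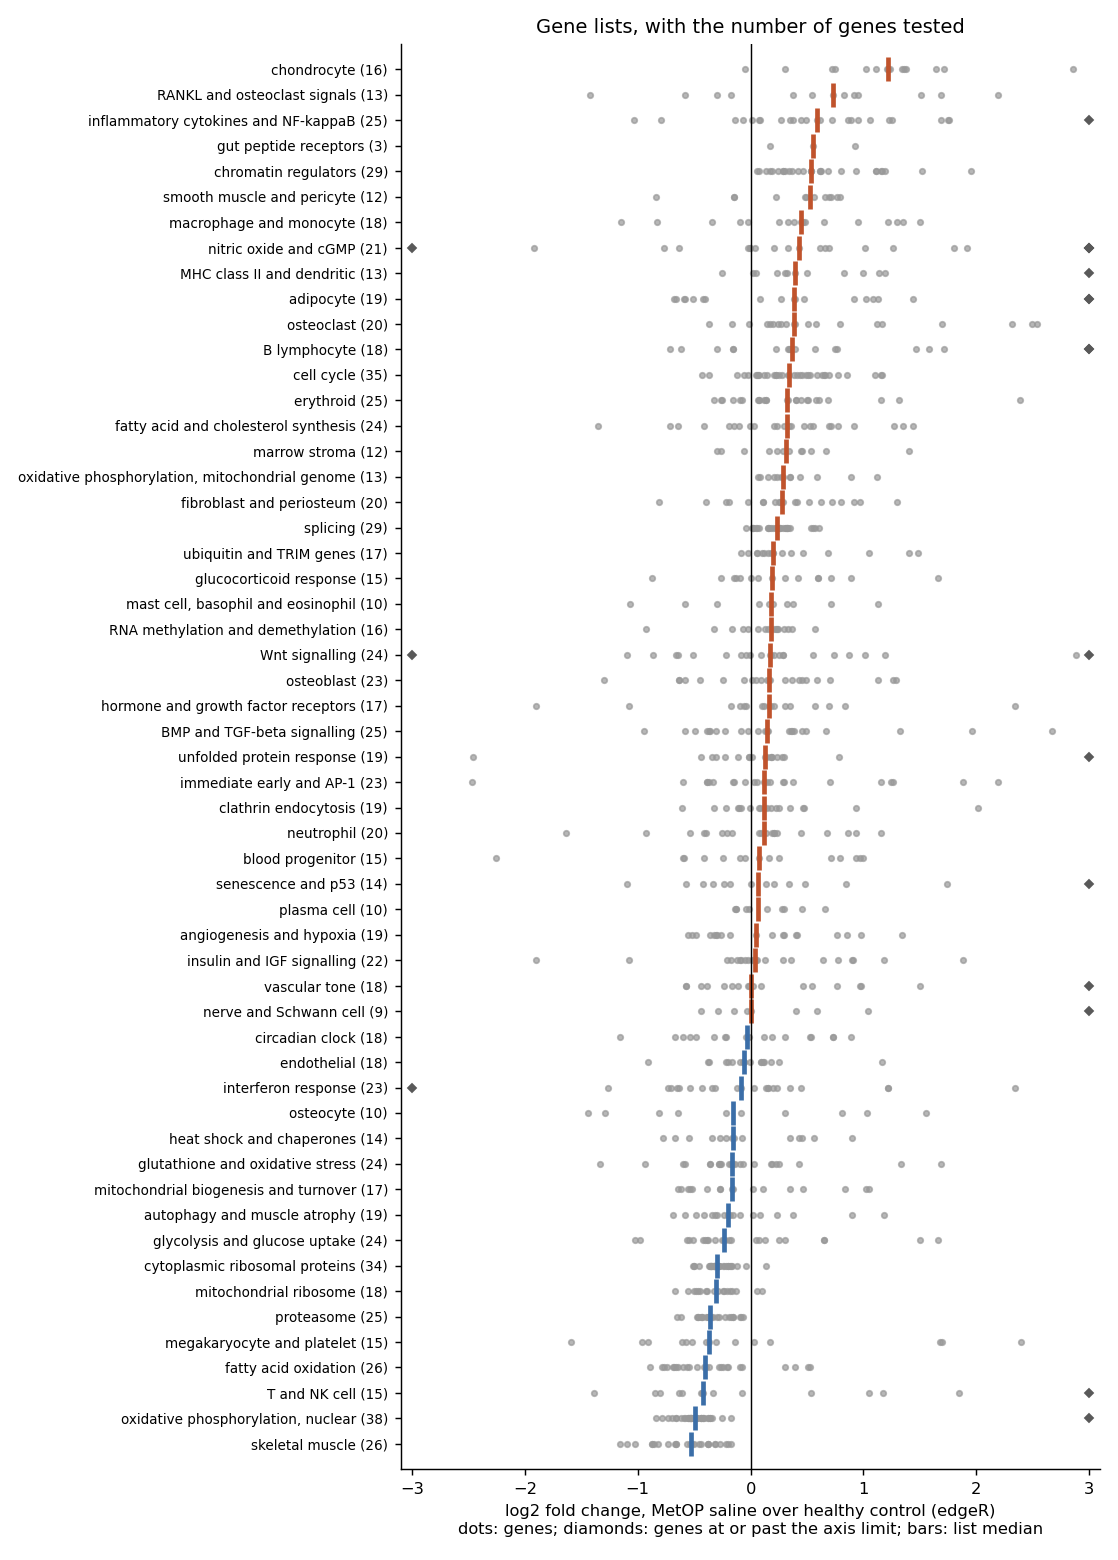
Log2 fold changes of the tested genes of 55 lists (dots, with diamonds at or past the limit of the axis) and the median of each list (coloured bars), ordered by median, with the number of genes tested in brackets. Medians run from -0.53 for skeletal muscle to 1.22 for chondrocyte genes, and the chromatin, splicing, ribosomal protein and proteasome lists lie almost entirely on one side of 0.

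Chromatin regulators open, close and mark the DNA template. All 29 tested were higher in MetOP saline, with log2 fold changes of 0.05 to 1.95 and a median of 0.54 against 0.04 for all genes. The list level was 3.31 to 3.76 log2 CPM against 2.75 to 3.14, 13 of the 29 were higher at an unadjusted p under 0.05 (4.68% of all tested genes were), and 7 were higher without overlap between the groups (1.57% of all). Kmt2e, a reader of methylated histone H3, was at 22.5, 21.4, 30.4, 24.1 and 19.9 CPM against 8.48, 8.42, 12.9 and 13.9 CPM (log2 fold change 1.11, SE 0.25, edgeR adjusted p = 0.251). The histone methyltransferase gene Nsd1 was at 7.04, 9.14, 13.3, 7.82 and 6.30 CPM against 5.06, 3.64, 3.61 and 3.26 CPM, and its groups did not overlap. Bptf, which anchors a nucleosome remodeller, was at 9.32 to 15.2 CPM against 4.61 to 7.46 CPM, and the histone demethylase gene Kdm6b at 5.39 to 13.7 CPM against 3.38 to 4.29 CPM. Nsd1, Bptf and Kdm6b were named after their values were seen. The methyltransferase gene Kmt2a (log2 fold change 1.19, SE 0.41) and the Mediator kinase-module gene Med13 (1.12, SE 0.33) were higher with overlapping groups.

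Splicing factors cut introns from new transcripts. Of 29 tested, 28 were higher, but by little (median log2 fold change 0.24), with a list level of 6.19 to 6.44 log2 CPM against 5.96 to 6.12 and 6 genes higher without overlap (1.57% of all tested genes). Sf3b1, a core part of the U2 particle, was at 142, 105, 113, 113 and 117 CPM in MetOP saline and at 75.5, 79.7, 84.4 and 81.8 CPM in the controls. All 5 model libraries lay above all controls (log2 fold change 0.55, SE 0.20, edgeR adjusted p = 0.663, DESeq2 adjusted p = 0.045). The scaffold gene Srrm2 was at 125, 156, 106, 119 and 180 CPM against 81.8, 98.1, 102 and 79.3 CPM. Prpf4b and Clk4, kinases that phosphorylate splicing proteins, had log2 fold changes of 0.54 (SE 0.21) and 0.57 (SE 0.22). Hnrnpu (135 to 151 against 112 to 134 CPM) and Srsf2 (100.4 to 117 against 87.1 to 94.4 CPM) also did not overlap between the groups, and Clk4 was named after its values were seen.

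The ubiquitin list holds ubiquitin ligases, tripartite motif genes and Usp genes, whose products remove ubiquitin. Of 17 tested, 15 were higher (median log2 fold change 0.19, and 0.08 without control A392), with list levels of 4.53 to 4.75 log2 CPM against 4.03 to 4.47. Nedd4, the most abundant of them that did not overlap, was at 175 to 209 CPM against 151 to 170 CPM. Trim33 (log2 fold change 0.69, SE 0.28) and Cblb, a ligase that restrains receptor kinases (1.05, SE 0.43), were higher with overlapping groups. In the clathrin list to which Fcho2 belongs, 12 of 19 were higher, with a median of 0.12. Its other gene without overlap among those higher was the cargo adaptor Dab2 (1.57% of all tested genes were higher without overlap). Dab2 was at 52.5, 23.6, 32.0, 23.9 and 25.1 CPM against 20.7, 14.0, 19.7 and 11.3 CPM.

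Ribosomal proteins build the machine that makes protein, and the proteasome takes protein apart. Of 34 cytoplasmic ribosomal protein genes tested, 33 were lower, with a median log2 fold change of -0.30, and 8 were lower without overlap between the groups (1.2% of all tested genes). Rps27 was at 67.3 to 91.4 CPM against 108 to 114 CPM, Rpl10a at 66.5 to 79.8 against 92.5 to 117 CPM, and Rpl4 at 276 to 347 against 375 to 409 CPM. Ribosomal protein genes have many near-identical pseudogenes, so how their reads were divided is uncertain. As shares of all counts other than mitochondrially encoded ones, the ribosomal protein genes took 1.91% ± 0.273 (SD, n = 5) in MetOP saline and 2.003% ± 0.242 (n = 4) in controls, a difference that did not pass (exact permutation p = 0.659, adjusted 0.878).

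All 25 proteasome genes tested were lower, with a median log2 fold change of -0.36, list levels of 4.97 to 5.17 against 5.27 to 5.61 log2 CPM and 6 genes lower without overlap (1.2% of all tested genes). Psma2, a subunit of the outer ring, was at 30.5, 39.0, 32.0, 33.0 and 31.1 CPM against 40.2, 51.3, 45.3 and 41.8 CPM. Psmb5, which carries the chymotrypsin-like activity, was at 12.96 to 29.8 CPM against 32.2 to 49.2 CPM, and Psmc3, an ATPase of the cap, at 27.7 to 37.5 against 38.1 to 50.9 CPM. None of the 3 overlapped between the groups. Mitochondrial ribosome genes were lower in 16 of 18 (median -0.31), with no gene separated (1.2% of all tested genes were lower without overlap). With the muscle level of each library as a covariate the medians were -0.22 for the proteasome and -0.14 for the mitochondrial ribosome, and the latter ran from -0.47 without control A387 to -0.14 without A389. The translation initiation gene Eif1 was at 300.5 to 364 CPM against 373 to 494 CPM.

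**Figure D3:**
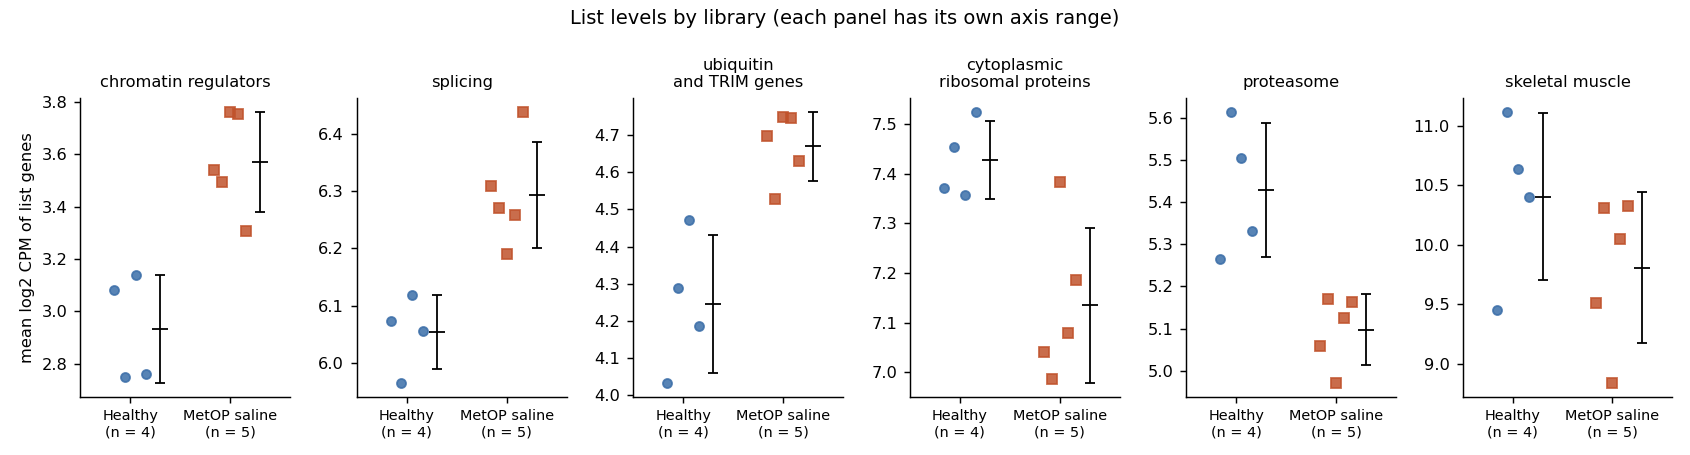
Level of 6 lists in each library, as the mean log2 CPM of the tested genes of the list, 1 point per library with mean ± SD in black, each panel with its own range. Chromatin, splicing and ubiquitin lists are higher and the proteasome list lower in all 5 MetOP saline libraries than in all 4 controls, while the ribosomal protein and skeletal muscle lists overlap.

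These groups differ in gene length, and the length of a gene moved with its difference. The median length given in the deposited table was 9451 bases for the chromatin list, 3707 for splicing and 11414 for the ubiquitin list. It was 1314 for ribosomal proteins, 1757 for the proteasome and 2945 for all tested genes. Genes higher in every MetOP saline library had a median length of 4598.5 bases and those lower in every one 2112.5 bases. The median log2 fold change went from -0.17 in the shortest 10% of genes to 0.20 in the longest 10%, with a Spearman correlation of 0.178 across genes, which are not independent. The mean log2 level of the longest 25% of genes minus that of the shortest 25% was -0.62 to -0.32 in the 4 controls and -0.30 to -0.10 in the 5 MetOP saline libraries. It was -0.30 to -0.05 with semaglutide, -0.12 to 0.34 with PYY3-36 and -0.36 to 0.30 with both.

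With a correction for length within each library, added after the data had been seen, the chromatin median was 0.39 (25 of 29 higher, 5 without overlap) and the splicing median 0.22 (26 of 29 higher, 6 without overlap). The ribosomal protein median was then -0.11 (4 without overlap), the proteasome median -0.21 (none without overlap) and the ubiquitin median 0.03. Under that correction 53.8% of all genes lay above 0, and 1.38% were higher and 0.936% lower without overlap. Single leading genes then had log2 fold changes of 2.001 for Fcho2, 1.80 for Aff1, 1.29 for Arhgef12, 0.99 for Kmt2e and -0.89 for Fto. Rn18s, the gene of the small ribosomal RNA that poly(A) selection is meant to leave out, was at 221, 185, 336, 296 and 180 CPM in MetOP saline against 152, 165, 156 and 135 CPM, without overlap. The part of ribosomal RNA carry-over in these differences was not tested.

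**Figure D4:**
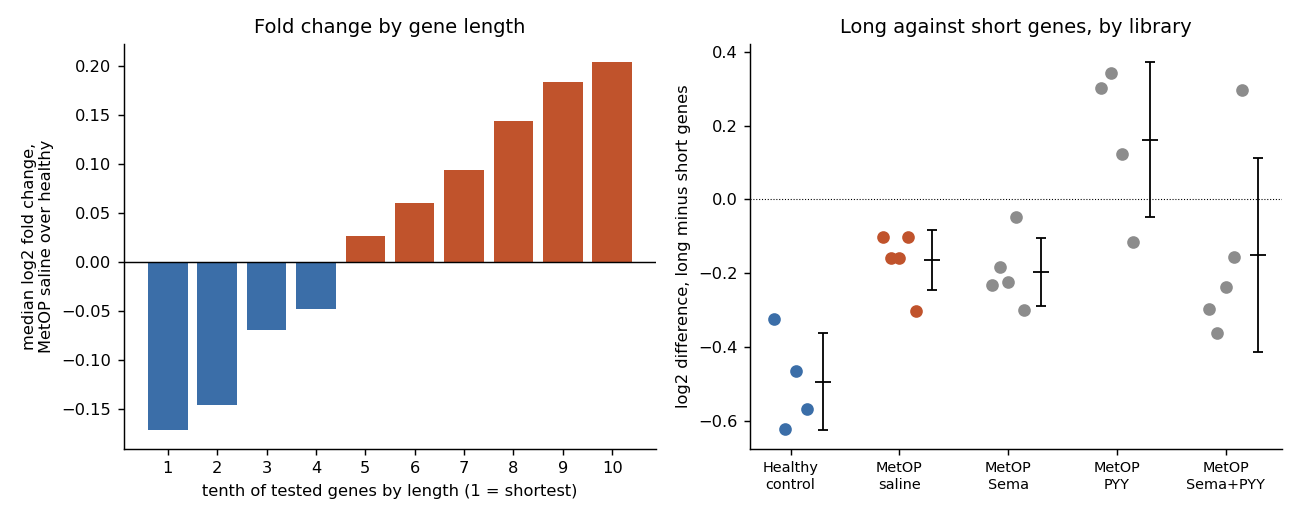
Left, median log2 fold change of MetOP saline over healthy in 10 equal groups of the tested genes by length, from -0.17 in the shortest to 0.20 in the longest. Right, mean log2 level of the longest 25% of genes minus the shortest 25% in each of the 23 libraries, with mean ± SD in black, where the 4 controls lie below the 5 MetOP saline libraries.

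Bone-forming genes were not separated between the groups. Of 23 osteoblast genes tested, 16 were higher and 7 lower. None passed an unadjusted p under 0.05, where 4.68% of all tested genes were higher and 1.87% lower. The list level of 2.51 to 5.68 log2 CPM in MetOP saline covered that of the controls. Col1a1 was at 2934, 888, 897, 645 and 138 CPM against 3331, 434, 458 and 1004 CPM, so that each group held 1 library far above the rest. Bglap, which encodes osteocalcin, was at 80.1, 34.1, 68.6, 44.3 and 18.5 CPM against 128, 45.1, 38.2 and 82.2 CPM (log2 fold change -0.58, SE 0.66). Mmp13, a collagenase of osteoblasts and hypertrophic cartilage, was at 33.1 to 637 CPM against 46.7 to 161 CPM, and Omd, a small proteoglycan of mineralized matrix, at 4.69 ± 4.22 CPM (SD, n = 5) against 11.7 ± 7.12 (n = 4). Osteocyte genes were higher in 4 of 10. Dmp1, a matrix protein of osteocytes that binds mineral, was at 53.2, 18.7, 45.8, 24.0 and 9.75 CPM against 23.2, 13.8, 19.9 and 12.3 CPM, the sclerostin gene Sost at 1.75 ± 1.73 against 2.74 ± 1.82 CPM, and Pdpn, a membrane protein of early osteocytes, at 1.603 ± 1.35 against 4.43 ± 1.95 CPM. These osteocyte genes overlapped between the groups, and the osteoblast median was -0.16 with the muscle covariate against 0.17 without it.

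Genes of resorption gave no call. Osteoclast genes were higher in 17 of 20 (list median 0.39), with list levels of 1.54 to 4.10 against 1.78 to 3.02 log2 CPM that overlapped. The median was 0.13 without A224, 0.88 without control A387 and 0.19 with the muscle level of each library as a covariate. Ctsk was at 376, 104, 151, 181 and 27.3 CPM against 299, 73.5, 42.0 and 98.1 CPM, and the acid phosphatase gene Acp5 at 12.2 to 209 CPM against 20.8 to 173 CPM. Both overlapped over nearly their whole range. Itgb3, the integrin chain with which osteoclasts grip bone and which platelets share, was at 5.03, 3.44, 3.14, 3.84 and 3.75 CPM against 3.63, 0.677, 0 and 0.355 CPM, where control A387 alone reached the range of the model. The calcitonin receptor gene Calcr was at 1.64 ± 0.836 CPM (SD, n = 5) against 0.325 ± 0.423 (n = 4).

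Among the signals that set osteoclast formation, 9 of 13 genes were higher (median log2 fold change 0.73, and 0.34 without control A389 or 0.47 with the muscle covariate). Tnfsf11, which encodes RANKL, was at 1.00 ± 1.21 CPM against 1.52 ± 0.848, its receptor Tnfrsf11a at 2.72 ± 2.96 against 1.22 ± 0.399, and its decoy receptor Tnfrsf11b at 14.6, 4.18, 11.4, 1.77 and 2.72 CPM against 0.641, 0, 1.41 and 7.82 CPM (mean ± SD, n = 5 and 4). All 3 overlapped between the groups. Csf1, the growth factor of the macrophage and osteoclast lineage, differed by a log2 fold change of 0.73 (SE 0.53). The one gene of this list without overlap was Fosl2 (1.57% of all tested genes were higher without overlap), described below with the immediate early genes.

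Regulators of bone turnover showed no common direction. Wnt genes were higher in 14 of 24 (list median 0.18), genes of bone morphogenetic protein and TGF-beta signalling in 15 of 25 (0.15), hormone and growth factor receptors in 11 of 17 (0.16) and insulin and IGF genes in 13 of 22 (0.04). Lrp6, a Wnt co-receptor, was at 2.44, 4.26, 2.94, 3.55 and 5.87 CPM against 3.03, 1.06, 1.00 and 1.54 CPM (log2 fold change 1.19, SE 0.44, edgeR adjusted p = 0.683), and control A387 lay within the range of the model. Pik3r1, a regulatory subunit of the kinase behind insulin signals, gave a log2 fold change of 0.78 (SE 0.34), and Foxo1, a factor that insulin restrains, one of 1.18 (SE 0.62). The estrogen receptor gene Esr1 was at 1.21 ± 1.28 CPM (SD, n = 5) against 0.231 ± 0.269 (n = 4), and Igf1r at 0.152 ± 0.146 against 0.6 ± 0.454, levels at which few reads stand behind each value.

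Cartilage genes followed single libraries. They were higher in 15 of 16, with a median log2 fold change of 1.22 and list levels of -0.05 to 6.86 log2 CPM against -1.53 to 6.05. Col2a1, the collagen of cartilage, was at 2834, 958, 1322, 28.3 and 13.1 CPM against 2.81, 0.677, 0.685 and 2458 CPM. Col10a1 of hypertrophic cartilage was at 139, 47.2, 19.1, 1.59 and 0.908 CPM against 0, 0, 1.51 and 21.8 CPM. Model libraries A224, A226 and A229 and control A392 were high in cartilage RNA and the other 5 low, and the list median was 6.53 without A392, 0.33 without A224 and 0.17 with the muscle covariate. Acan, the main cartilage proteoglycan, followed the same order, at 241.2 CPM in A224, 102 CPM in A392 and 1.19 to 5.79 CPM in the 5 low libraries.

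**Figure D5:**
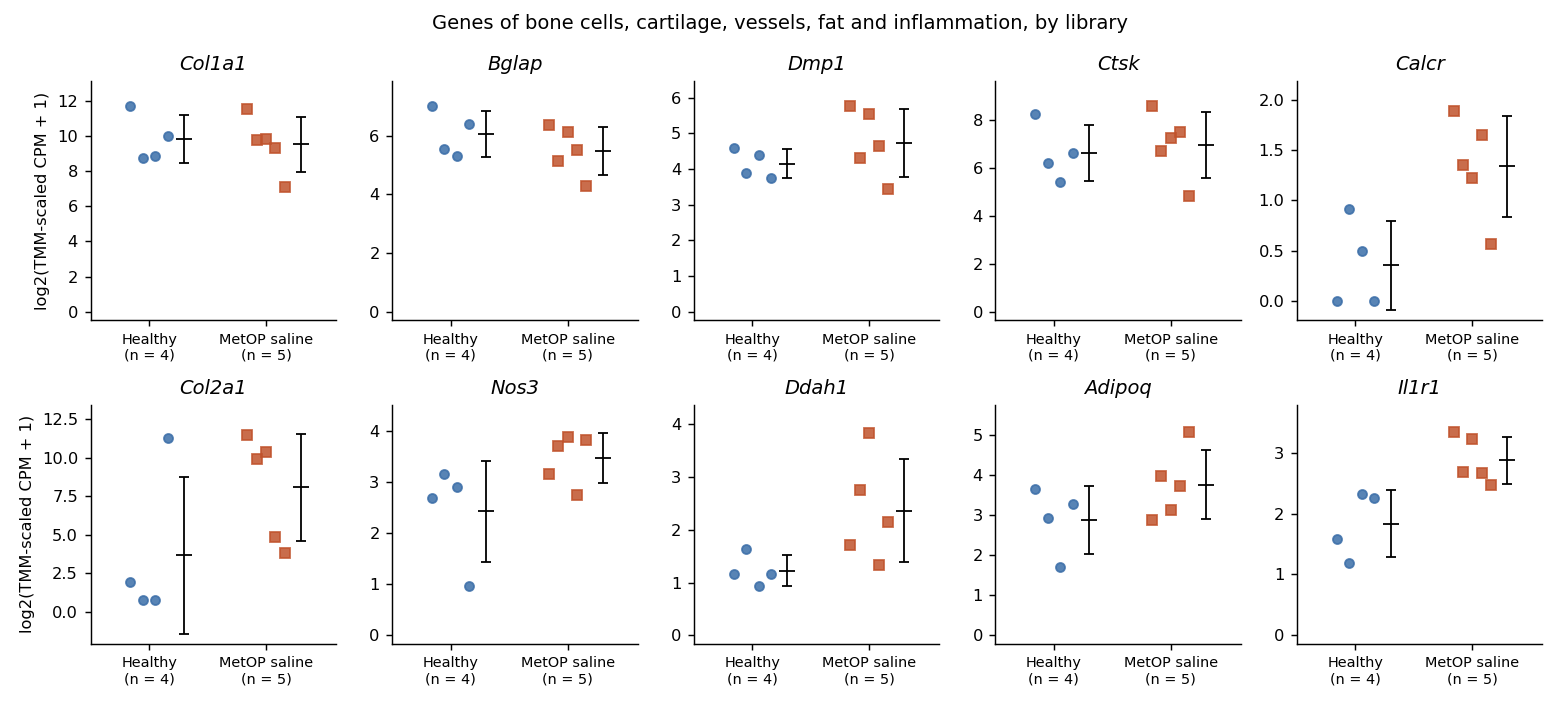
Levels of 10 genes as log2(TMM-scaled CPM + 1), 1 point per library with mean ± SD in black (4 healthy, 5 MetOP saline). Il1r1 is without overlap between the groups, the bone matrix genes Col1a1 and Bglap overlap in part, and Col2a1 is high in control A392 and low in the other 3 controls.

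Genes of the nitric oxide pathway, the target of L-NAME, were mixed. Of 21 tested, 14 were higher (median log2 fold change 0.43, and 0.27 without A232), and the group levels overlapped (0.33 to 1.00 against -0.02 to 0.54 log2 CPM). At an unadjusted p under 0.05, 3 were higher and 2 lower (4.68% and 1.87% of all tested genes). Nos3, the endothelial synthase, was at 7.99, 12.1, 13.7, 5.72 and 13.1 CPM against 5.41, 7.95, 6.44 and 0.948 CPM (log2 fold change 1.01, SE 0.42, edgeR adjusted p = 0.702), and model library A232 lay within the controls. Nos1 and Nos2, the neuronal and inducible synthases, were scarce, at 0.589 ± 0.638 and 2.12 ± 2.24 CPM (SD, n = 5) against 0.367 ± 0.284 and 1.37 ± 2.18 (n = 4). Ddah1, which breaks down natural inhibitors of the synthases, was at 2.29, 5.78, 13.2, 1.52 and 3.45 CPM against 1.25, 2.12, 0.913 and 1.24 CPM. Of its 5 model libraries, A232 alone fell within the controls (log2 fold change 1.91, SE 0.57, edgeR adjusted p = 0.631). Nosip, an interactor that holds Nos3 away from the membrane, was the one pathway gene without overlap and was named for that reason. It was at 8.32, 7.41, 3.07, 8.51 and 7.45 CPM against 9.69, 9.35, 8.99 and 19.4 CPM. Of all tested genes, 1.57% were higher and 1.2% lower without overlap. Arg1, an arginase that competes for arginine, had 21 counts in the model and 0 in the controls. Against a floor of 3 counts over the group it was at least 5.17-fold higher, but not every model library held a count.

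Of the other vessel lists, only that of smooth muscle and pericyte genes leaned in 1 direction. Its levels overlapped, at 2.81 to 3.41 log2 CPM in MetOP saline against 2.22 to 3.37 in controls. Endothelial genes were higher in 7 of 18 (list median -0.06), vascular tone genes in 9 of 18 (0.00) and genes of angiogenesis and hypoxia in 10 of 19 (0.05), whereas smooth muscle and pericyte genes were higher in 9 of 12 (0.53, and 0.31 without control A389). The endothelin receptor gene Ednrb was at 1.92 ± 1.40 CPM (SD, n = 5) against 0.672 ± 0.641 (n = 4).

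Fat and lipid genes were higher in part. Adipocyte genes were higher in 12 of 19 (list median 0.39, and -0.11 without model library A265). Adipoq, the adiponectin gene, was at 6.34, 14.9, 7.82, 12.3 and 32.4 CPM against 11.6, 6.56, 2.24 and 8.71 CPM, highest in A265. Lep, the leptin gene, had 46 counts over 3 of the 5 model libraries and 0 in the controls, at least 11.3-fold higher against the same floor. Pparg, the master factor of fat cells, was at 3.82 ± 2.09 CPM (SD, n = 5) against 2.91 ± 0.825 (n = 4). In fatty acid and cholesterol synthesis 16 of 24 were higher (median 0.32, and 0.16 with the muscle covariate). Acly, which makes the acetyl-CoA for both routes, was at 24.3, 15.4, 22.6, 17.2 and 15.5 CPM against 14.99, 11.4, 9.36 and 11.3 CPM, without overlap (log2 fold change 0.70, SE 0.31, edgeR adjusted p = 0.731). Within the cholesterol route, Lss was higher (log2 fold change 1.27, SE 0.61) and Fdps lower (-0.42, SE 0.20).

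Fuel-burning genes were lower together with muscle genes. All 26 skeletal muscle genes were lower (median log2 fold change -0.53), with overlapping levels of 8.84 to 10.33 log2 CPM in the model and 9.45 to 11.12 in controls. Acta1, the actin of muscle fibres, was at 4391 ± 1423 CPM (SD, n = 5) against 7734 ± 3198 (n = 4), and Actn2 of the Z-disc at 383 ± 228 against 701 ± 360. Des, the intermediate filament of muscle, was at 443, 616, 433, 642 and 464 CPM against 734, 1472, 928 and 859 CPM, and Pdlim3, also of the Z-disc, at 167 to 250 against 267 to 352 CPM. These 2 abundant muscle genes, which are not in the list of 26, did not overlap between the groups. Of the list genes, 0 were lower without overlap (1.2% of all tested genes were). At an unadjusted p under 0.05 in edgeR, 0 of them were lower (1.87% of all).

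Nuclear genes of oxidative phosphorylation were lower in 37 of 38 (median -0.50), fatty acid oxidation genes in 22 of 26 (-0.40) and mitochondrial biogenesis genes in 10 of 17 (-0.16). Ndufb8 of complex I was at 78.4 ± 15.1 CPM (SD, n = 5) against 130 ± 52.3 (n = 4), Sdha of complex II at 100.2 ± 25.1 against 163 ± 58.1, and Acads, a dehydrogenase of short fatty acids, at 10.7 ± 6.19 against 19.98 ± 10.6. With the muscle level of each library as a covariate the medians were -0.12 for oxidative phosphorylation and -0.08 for fatty acid oxidation. Without control A389, the highest in muscle RNA, the oxidative phosphorylation median was -0.26 and the muscle median -0.25. Tfam, which packs and transcribes mitochondrial DNA, was at 20.4, 26.7, 18.8, 29.3 and 17.7 CPM against 30.2, 39.3, 37.9 and 34.0 CPM, without overlap. The 13 protein genes of the mitochondrial genome itself were all higher (median 0.29, and 0.10 without A265 or 0.77 without control A392), led by Mt-nd4l (log2 fold change 1.12, SE 0.55) and Mt-nd5 (0.89, SE 0.59), with Mt-co1 at 0.27 (SE 0.72).

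Marrow lists overlapped between the groups. Erythroid genes were higher in 19 of 25 (list median 0.32), neutrophil genes in 12 of 20 (0.12), B lymphocyte genes in 13 of 18 (0.37, and 0.12 with the muscle covariate), megakaryocyte genes in 5 of 15 (-0.36) and T and NK cell genes in 5 of 15 (-0.42). Epb41, a protein of the red cell skeleton, was at 29.8, 25.7, 86.4, 85.2 and 63.9 CPM against 31.0, 17.6, 26.7 and 18.1 CPM, and Ermap, a red cell surface protein, at 10.3, 3.11, 36.8, 44.3 and 11.99 CPM against 4.84, 5.50, 4.06 and 1.78 CPM. For both genes libraries A229 and A232 were highest and A226 lay within the controls, as did A224 for Epb41. The transferrin receptor gene Tfrc was at 143 ± 63.2 CPM (SD, n = 5) against 101 ± 20.9 (n = 4). Cell cycle genes, most active in dividing marrow, were higher in 30 of 35 (median 0.34, and 0.11 without A232 or 0.58 without control A387). No cell cycle gene passed an unadjusted p under 0.05, where 4.68% of all tested genes were higher and 1.87% lower. The B cell receptor component Cd79a gave a log2 fold change of 0.57 (SE 1.18), and Cr2, a complement receptor of mature B cells, had 86 counts in 3 model libraries and 0 in the controls (at least 21.2-fold higher).

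Inflammatory genes were higher in most cases. Genes of inflammatory cytokines and NF-kappaB were higher in 21 of 25 (list median 0.58), and 3 of them (Ptgs2, Il1r1 and Nfkb1) were higher without overlap between the groups (1.57% of all tested genes). Il1r1, the signalling receptor of interleukin 1, was at 9.09, 5.41, 8.35, 5.32 and 4.54 CPM against 1.99, 1.27, 3.97 and 3.79 CPM (log2 fold change 1.25, SE 0.43, edgeR adjusted p = 0.645). Nfkb1, a subunit of the transcription factor, was at 15.7, 11.7, 16.2, 17.4 and 11.8 CPM against 10.7, 8.76, 11.04 and 8.29 CPM. Ptgs2, the inducible enzyme of prostaglandin synthesis, was at 0.257, 0.655, 3.14, 0.362 and 0.666 CPM in the model, 94 counts in all, and at 0 in each control, at least 23.2-fold higher. Library A229 was far the highest for Ptgs2. Il1b itself overlapped, at 2.72 ± 1.58 CPM (SD, n = 5) against 0.839 ± 0.765 (n = 4).

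Macrophage and monocyte genes were higher in 13 of 18 (median 0.45) and genes of MHC class II and dendritic cells in 12 of 13 (0.39). With the muscle covariate these medians were 0.24 and 0.11, and they were 0.23 without control A389 and 0.08 without A224. Mrc1, the mannose receptor of resident macrophages, was at 5.80, 3.93, 9.69, 4.92 and 11.5 CPM against 4.88, 1.14, 3.51 and 2.72 CPM, and Ctss, a protease of antigen processing, gave a log2 fold change of 1.30 (SE 0.64). Clec9a, a marker of cross-presenting dendritic cells, had 38 counts in the model and 0 in controls (at least 9.36-fold higher). Not every model library held a count of Clec9a, so its groups overlapped. Of 23 interferon-induced genes, 11 were higher and 12 lower, with a median of -0.08.

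Immediate early genes, which cells switch on within minutes of a stimulus, were divided. Of 23 tested, 14 were higher with a median log2 fold change of 0.12, and 4 were higher and none lower at an unadjusted p under 0.05 (4.68% and 1.87% of all tested genes). Fosl2, an AP-1 subunit that also acts in osteoblasts and osteoclasts, was at 5.21, 4.38, 11.9, 4.31 and 4.48 CPM against 2.32, 0.846, 2.05 and 0 CPM, without overlap (log2 fold change 2.19, SE 0.66, edgeR adjusted p = 0.631). Junb, another AP-1 subunit, was at 10.8, 10.4, 17.8, 6.84 and 8.35 CPM against 7.02, 3.004, 4.52 and 4.80 CPM, and A232 lay just below the highest control. The orphan nuclear receptor gene Nr4a2 was at 8.35, 29.9, 4.54, 9.85 and 7.57 CPM against 1.603, 3.09, 6.57 and 1.84 CPM, and the fourth gene, Klf4, named after its values were seen, at 41.7 ± 10.4 CPM (SD, n = 5) against 25.6 ± 9.98 (n = 4). Fos, the gene best known for such a response, was at 13.4 ± 6.55 against 10.3 ± 10.1 CPM, and model library A226 and control A390 were high for it.

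RefSeq promoter windows of the GRCr8 assembly, from 250 bases before to 50 bases after the start of a gene, were found for 16 of the 24 genes of this list. They are shown for the 3 immediate early genes with the largest differences at an unadjusted p under 0.05 and for Maff, picked after its matches were seen, because Creb1 and AP-1 genes were among the higher ones. The AP-1 motif TGANTCA was in 0 of the 16 windows, against 7.33% of all 33469 windows. The cyclic AMP response element TGACGTCA was in 5 of 16 against 1.83%, and the E-box CACGTG in 2 of 16 against 6.42%, on either strand, with no overlap of 2 motifs. The 4 tested genes with that response element had log2 fold changes of -0.37 to 0.06, Maff being the lowest (SE 0.48), and the windows of Fosl2, Junb and Nr4a2 held none of the 3 motifs. Below are the 250 bases before the start, 5′ to 3′ on the strand of the gene, with coordinates of GRCr8 and not of the deposited table, and with matches in capitals (the response element, and in Maff also the E-box).
Fosl2 (chr6:30039270-30039519, minus strand): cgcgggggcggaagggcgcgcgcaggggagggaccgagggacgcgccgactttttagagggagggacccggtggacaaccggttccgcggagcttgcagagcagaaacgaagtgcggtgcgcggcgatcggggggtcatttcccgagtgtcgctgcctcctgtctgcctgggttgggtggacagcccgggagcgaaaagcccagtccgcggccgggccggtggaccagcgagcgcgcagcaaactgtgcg
Junb (chr19:40080876-40081125, plus strand): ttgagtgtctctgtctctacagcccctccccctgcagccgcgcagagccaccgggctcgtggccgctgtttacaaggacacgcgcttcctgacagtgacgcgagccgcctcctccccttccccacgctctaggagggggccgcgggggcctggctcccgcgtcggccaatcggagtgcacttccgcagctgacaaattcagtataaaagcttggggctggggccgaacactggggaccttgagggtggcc
Nr4a2 (chr3:62104888-62105137, minus strand): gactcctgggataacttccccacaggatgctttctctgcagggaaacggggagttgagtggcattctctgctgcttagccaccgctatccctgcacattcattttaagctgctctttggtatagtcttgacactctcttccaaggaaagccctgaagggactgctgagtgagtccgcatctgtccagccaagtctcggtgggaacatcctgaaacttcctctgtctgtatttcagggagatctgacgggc
Maff (chr7:112792537-112792786, plus strand): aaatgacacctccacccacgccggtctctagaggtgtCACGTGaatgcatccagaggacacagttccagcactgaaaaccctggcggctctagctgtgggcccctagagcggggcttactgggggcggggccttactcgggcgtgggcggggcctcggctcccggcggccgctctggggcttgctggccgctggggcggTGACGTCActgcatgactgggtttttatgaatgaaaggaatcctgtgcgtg

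Stress responses otherwise showed little. Heat shock genes were lower in 9 of 14 (median log2 fold change -0.16), although the chaperone gene Dnaja1 was higher in every model library, at 61.7, 60.3, 64.5, 69.4 and 82.9 CPM against 52.9, 38.3, 50.4 and 42.0 CPM. Its partner class member Dnajb1 gave a log2 fold change of 0.90 (SE 0.38). Glutathione genes were lower in 16 of 24 (-0.16), the unfolded protein response was higher in 11 of 19 (0.13, and 0.01 without control A389), glucocorticoid response genes in 10 of 15 (0.19, and 0.07 without A224) and clock genes in 8 of 18 (-0.03).

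Receptors of gut peptides and neuropeptide Y were mostly scarce, and 3 of the 10 genes in their list had enough counts to be tested. Glp1r and Npy2r had 0 counts in each of the 9 libraries, which allows up to 0.0932 to 0.141 CPM per library before scaling. Npy1r was at 1.41 to 7.02 CPM in MetOP saline against 1.82 to 2.61 CPM in the controls (log2 fold change 0.92, SE 0.61).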

How the data were processed

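Raw counts per Ensembl gene, 1 column per library, were used as deposited by the authors. The submitters' processing notes name the build mRatBN7.2 and DESeq2 1.42.0. Aligner and counter: not given in the sources used here. Per the labels' protocol libraries could be made with or without strand marking, so overlapping and antisense genes are uncertain. The depth was 21318399 to 32183493 counts per library, and a count of 0 allows up to 3 counts. Floors cover counting error only, since reads carried no molecular identifiers.

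Counts were tested in R 4.3.3 with edgeR 4.0.16 (TMM, filterByExpr by group, robust quasi-likelihood, 18 residual degrees of freedom, Benjamini-Hochberg adjusted p under 0.05). All 23 libraries were fitted together, and the contrast was MetOP saline minus healthy control. DESeq2 1.42.0 and limma 3.58.1 (voom) were alternatives, as were other size factors, a muscle covariate, left-out gene classes and each library left out. A length correction and the removal of mitochondrial, muscle and haemoglobin genes together were chosen after seeing the data. Levels are TMM-scaled CPM, list levels used a prior count of 2, and long and short genes were the top and bottom 25% by length among genes of at least 5 CPM. Shares were compared with exact permutation tests. The smallest chi-square per degree of freedom between libraries of a group was 78.2 over 16 pairs (log2 CPM r of 0.795 to 0.909), so each counted as 1 sample.

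Genes named were the 12 of smallest p in each direction (mean of at least 1 CPM, no placeholder symbol), the first 3 and the 3 of smallest p in each list, DESeq2 calls without overlap, and the most abundant genes without overlap, of which the text takes a selection. Of 1131 list entries, 1107 matched by symbol, 3 through the RefSeq table and 21 not at all, and 1064 were tested. The groups compared and the lists were chosen with earlier results of these data known. FPKM values were not used, and a few genes that the rule names are not reported here.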

Additional observations from a re-analysis of the deposited data

Results flagged for a closer look

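In 27 of 354 groups of values examined (single genes, list levels and the long-minus-short measure within 1 group of libraries), 1 library lay apart from the others of its group by Dixon's test. For independent, normally distributed values chance alone would flag about 1 in 20 groups, but CPM values of related genes need not meet this.

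Control A392 stood apart for cartilage RNA, at 2458 CPM for Col2a1, 102 CPM for Acan and 21.8 CPM for Col10a1, with a chondrocyte list level of 6.05 log2 CPM. It was also high for Foxo1 at 2.61 CPM, for Pparg at 4.15 CPM and for Nosip at 19.4 CPM. Control A387 stood apart for Nos2 at 4.63 CPM, for the muscle gene Actn2 at 167 CPM, where it was low, and for the unfolded protein response list at 3.96 log2 CPM. Control A390 had 0.411 CPM of Mybl1.

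Among the MetOP saline libraries, A224 was high for Col1a1 at 2934 CPM, for Tnfrsf11a at 7.88 CPM and for MHC class II and dendritic genes at a list level of 2.55 log2 CPM, and low for Mga at 7.57 CPM. A229 was high for Ddr2 at 29.9995 CPM, Fosl2 at 11.9 CPM, Ptgs2 at 3.14 CPM and Ednrb at 4.41 CPM. It was low for Nosip at 3.07 CPM and for the gut peptide receptors at 0.274 log2 CPM. A226 was high for Nr4a2 at 29.9 CPM and Fos at 24.9 CPM, and A232 for Prpf4b at 57.6 CPM. A265 was low for the B lymphocyte list at -1.22 log2 CPM, for the nitric oxide list at 0.328 log2 CPM and for long minus short genes at -0.302, the value nearest to the controls.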

How the results depend on the processing

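No gene was called by edgeR under any alternative run. DESeq2 called 47, 46 higher and 1 lower. Without a filter on low counts 550 genes were lower at an unadjusted p under 0.05. Leaving out 1 library at a time gave 319 to 544 genes higher without overlap and 257 to 696 lower, and fewer libraries make separation easier by construction. Single genes turned their sign in 11 cases. With the muscle covariate the log2 fold change was -0.058 for Acp5 and -0.44 for Col2a1. With 1 library left out it ran from -1.03 to 0.80 for Col1a1, from -0.15 to 1.24 for Ctsk, from -0.49 to 1.00 for Acp5, from -0.0855 to 9.52 for Col2a1, from -0.13 to 1.11 for Nos1 and from -0.13 to 2.89 for Nos2. The cause was not tested. No paired analysis was possible because the groups share no replicate number. With most counts taken by the mitochondrial genome, differences in genes under about 1 CPM rest on few reads.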
